A study of Mus musculus with 24 samples.

Results

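The genes described here are the subunits, activators and assembly chaperones of the mouse proteasome. They were chosen as protein-coding genes of the count table whose symbol is Psma to Psmg followed by a digit, which gave 50 of 55434 genes in all and of 21920 protein-coding genes. Of these, 5 are the immunoproteasome genes: the inducible catalytic subunits Psmb8, Psmb9 and Psmb10 and the activator subunits Psme1 and Psme2. The other 45 include 31 genes of the constitutive core and of the regulatory particle. A filter on low counts kept 49 of the 50 genes, and left out only Psmb11, the thymus-specific catalytic subunit, which had 0 reads in every neonatal library and 0 to 5 in the adult ones. The symbol pattern also takes in Psmc3ip, which is not a proteasome subunit. It takes in Psme2b as well, a gene close in sequence to Psme2, so that reads may be split between them and the counts of both are uncertain.

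RNA was sequenced from CD11b-selected microglia, the resident macrophages of the brain, in a study of lupus-prone mice and neuropsychiatric disease. There were 24 libraries in 8 groups of 3. The 6 neonatal groups came from MRL/lpr pups: microglia were isolated by enzymatic digestion and magnetic beads, kept for 48 h in culture, and then left unstimulated or given IFNg, IL-6, IFNa, TNFa or a mixture of all 4 cytokines for 6 h. The cytokine doses were not given in the sources used here. The 2 adult groups were microglia of 16-week-old mice, MRL/lpr and its parent strain MRL/MpJ, with no cytokine added. MRL/lpr carries the lpr mutation of the death receptor gene Fas and develops a lupus-like disease. All neonatal groups, controls included, carry lpr, so none of the cytokine comparisons holds a wild-type Fas control. Age and culture both differ between the neonatal and adult groups and cannot be told apart. Nothing says that the 3 libraries of a group came from separate cultures or animals, so p-values measure the spread between these libraries, which may be technical.

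The proteasome is the protease that degrades ubiquitin-tagged proteins: a barrel of alpha and beta rings, of which only some beta subunits cut peptide bonds, capped by a regulatory particle whose ATPases unfold the substrate. Interferons are known to induce alternative catalytic subunits, Psmb9 in place of Psmb6, Psmb10 in place of Psmb7 and Psmb8 in place of Psmb5, and the PA28 activator made of Psme1 and Psme2. The resulting immunoproteasome favours the cleavage of peptides suited to MHC class I, and in the brain microglia are among the cells known to express it.

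Psmb8 (chr17:34197721-34201454, plus strand, mm10) and Psmb9 (chr17:34181987-34187764, minus strand) flank the peptide transporter gene Tap1 in the MHC region. Psmb9 shares 212 exon bases with Tap1 on the opposite strand, which is 5.8% of its exon length, and how the counting used strand was not given in the sources used here. Reads of the pair may therefore not be told apart in that stretch. Likewise Psmb8 shares 498 bases (14.7%) with the antisense gene Gm20496, Psmb7 405 bases (11.8%) with Nek6 on the opposite strand and Psmb5 109 bases (12.1%) with the miRNA gene Mir686 on its own strand. Psmb10 lies on chr8:105935735-105938444 (minus), and the activator genes Psme1 (chr14:55578123-55581529, plus) and Psme2 (chr14:55587441-55591113, minus) lie 5911 bases apart. The constitutive counterparts lie at chr14:54614119-54618022 (Psmb5, minus), chr11:70525367-70527858 (Psmb6, plus) and chr2:38588036-38644087 (Psmb7, minus).

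RefSeq promoter windows of the build GRCm38.p6, each 300 bases from 250 before to 50 after the start, were matched to 42 of the 50 genes. They were searched on both strands for the STAT dimer motif GAS (TTCNNNGAA), the IRF motif ISRE (GAAANNGAA) and the motif ARE (TGACNNNGC) of Nrf-type factors, and for the NF-kappaB consensus. These were held by 8.3%, 8.56%, 12.4% and 4.51% of all 32851 windows, and by windows of 3, 7, 6 and 1 of the 42 genes. The immunoproteasome genes gave 1 GAS match, in Psmb8, and 1 ISRE match, in Psme1. The ARE matches included Psmb5 and Psmb6, the constitutive genes that Psmb8 and Psmb9 replace, while Psmb7 had no window and was not searched. ARE was held by 6 of the members' 45 windows, close to the 12.4% of all windows. A match describes the letters only, and no factor was measured at these places. The 4 matches of the inducible and constitutive genes that the results turn on are printed in full, 29 bases each, read 5′ to 3′ on the gene's strand, with the motif in capitals (for Psme1 the motif reads on the other strand).
Psmb8, GAS, chr17:34198088-34198116, plus strand: tcctccgctgTTCCCAGAAgatgcccccc
Psme1, ISRE, chr14:55578494-55578522, plus strand: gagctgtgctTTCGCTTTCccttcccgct
Psmb5, ARE, chr14:54618024-54618052, minus strand: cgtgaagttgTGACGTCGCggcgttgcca
Psmb6, ARE, chr11:70525338-70525366, plus strand: ctaaagagagTGACGGAGCgctttacgac
Counted from the RefSeq start, the capitals span -97 to -89 in Psmb8, 10 to 18 in Psme1, -47 to -39 in Psmb5 and -9 to -1 in Psmb6. In the GENCODE gene models, which gave the gene coordinates above, the Psmb8 and Psme1 matches lie in exons, in untranslated sequence. The Psmb8 match thus lies inside the gene by those coordinates, though before the RefSeq start. The Psmb5 and Psmb6 matches lie outside exons.

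The libraries held 10084927 to 19316994 counted reads. Fas was low in every group and did not separate the adult labels, with 0.363 to 1.74 CPM (reads of a gene scaled to a fixed library total) for MRL/lpr against 0.2 to 0.684 for MRL/MpJ. The 6 microglia markers were detected in all groups, with summed levels of 38059 to 59625 CPM in the adult libraries and 7134 to 7838 CPM in the unstimulated neonatal ones. With stimulation that sum was 5011 to 6321 CPM (IFNg), 5021 to 5311 CPM (IFNa), 6318 to 7278 CPM (IL-6), 6296 to 7139 CPM (TNFa) and 3951 to 4802 CPM (mixture). In each of the IFNg, IFNa and mixture comparisons 1 of the 6 markers was higher and 2 were lower. With TNFa 1 was higher and 1 lower, and with IL-6 none was called. Over all genes tested, 8.57% were higher and 4.32% lower with IFNg, and 9.41% and 5.07% with IFNa. These shares were 15.7% and 16.4% with the mixture, and 4.38% and 3.72% with TNFa. The part of the markers in the proteasome results was not tested. The first library of each of the 6 neonatal groups carried 235 to 289 CPM of astrocyte markers, against 8.51 to 20.2 CPM in the others, and neonatal libraries with the same number deviated together. Results of a fit with that number as a block, and of a fit without those first libraries that was chosen after seeing the data, are therefore given beside the counts they move. In bulk RNA, fewer cells of a type and less RNA per cell cannot be told apart.

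IFNg raised the catalytic immunoproteasome genes, while no constitutive catalytic subunit passed the test. Levels of members are CPM scaled by TMM, a scaling that takes most genes as unchanged. Psmb9 stood at 35.2, 36.0 and 61.4 CPM in the unstimulated libraries and at 186, 209 and 224 CPM with IFNg. Psmb8 stood at 132, 171 and 242 CPM unstimulated and at 418, 499 and 559 CPM with IFNg. Psmb10 stood at 110, 108 and 151 CPM unstimulated and at 266, 328 and 339 CPM with IFNg. For each of these genes every IFNg library lay above every unstimulated one. Psmb9 rose by 2.25 on the log2 scale (SE 0.24; edgeR adjusted p = 1.43e-05, n = 3 a group), Psmb8 by 1.46 (SE 0.27; adjusted p = 0.00147) and Psmb10 by 1.36 (SE 0.21; adjusted p = 0.000372).

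The PA28 activator moved less with IFNg. Psme2 stood at 155, 199 and 192 CPM unstimulated and at 279, 354 and 274 CPM with IFNg, with no overlap, and rose by 0.76 (SE 0.18; edgeR adjusted p = 0.00783). Psme1 stood at 167, 193 and 253 CPM unstimulated and at 269.7, 312 and 275 CPM with IFNg. Its libraries did not overlap either, but its log2 difference of 0.51 (SE 0.19; edgeR adjusted p = 0.0988) did not pass. It passed with the replicate block (0.53, adjusted p = 0.00483), with DESeq2 (0.49, adjusted p = 0.0493) and without unstimulated replicate 3 (0.72, adjusted p = 0.0279). The call of Psme2 ended without IFNg replicate 2 (0.63, adjusted p = 0.0517) and without the first libraries (0.67, adjusted p = 0.0764).

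Among the constitutive catalytic subunits, Psmb6 stood at 271, 312 and 274 CPM unstimulated and at 291, 357 and 285 CPM with IFNg. Psmb5 stood at 46.6, 45.0 and 42.0 CPM unstimulated and at 45.6, 58.0 and 41.5 CPM with IFNg. Both overlapped between the groups. Psmb7 stood at 153, 167 and 163 CPM unstimulated and at 175, 204 and 168 CPM with IFNg, just separated. Their log2 differences were 0.15 for Psmb5 (SE 0.25; edgeR adjusted p = 0.817), 0.15 for Psmb6 (SE 0.18; adjusted p = 0.726) and 0.21 for Psmb7 (SE 0.13; adjusted p = 0.376).

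Over all 49 tested genes, 12 rose and 1 fell with IFNg, against 8.57% of all 14626 tested genes higher and 4.32% lower. Of the 5 immunoproteasome genes 4 rose, and their median log2 change was 1.36, against -0.02 over all genes. Of the 31 constitutive genes 7 rose and none fell, with a median of 0.20. The alpha ring, which shapes the gate of the barrel, gave 5 of its 7 genes, led by Psma5 (0.86; edgeR adjusted p = 0.000994) and Psma3 (0.80; adjusted p = 0.00374). None of the 6 ATPases of the regulatory particle and none of the 4 chaperones of core assembly passed. Psme2b rose by 0.91 (edgeR adjusted p = 0.00898). The only gene that fell was Psmd5, an assembly chaperone of the ATPase ring, by 0.46 (SE 0.14; adjusted p = 0.041), and that call was lost whichever IFNg or unstimulated library was left out. Under the replicate block 18 members rose, all 5 immunoproteasome genes among them, while the genes higher over all 14626 went from 1254 to 2156. Without the first libraries 5 members rose and none fell, against 577 higher and 310 lower of all 14146 genes then tested.

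**Figure D1:**
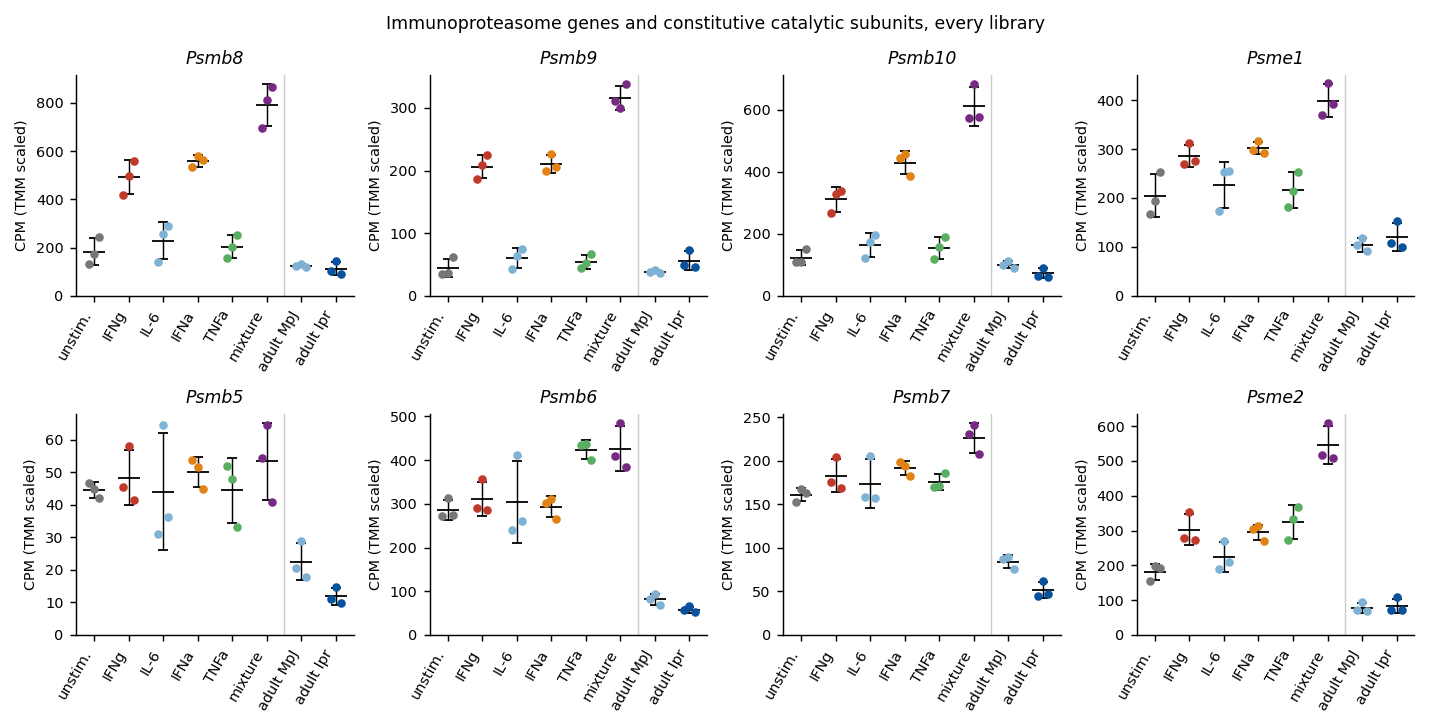
Level of the 5 immunoproteasome genes and of Psmb5, Psmb6 and Psmb7 in the 8 groups, in TMM-scaled CPM on linear axes that start at 0, with a point per library and the group mean. Psmb9 lies at 186 to 227 CPM with either interferon and at 299.5 to 338 CPM with the mixture, above the 35.2 to 61.4 CPM of the unstimulated libraries.

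IFNa gave values of the same size for the catalytic immunoproteasome genes. With IFNa Psmb9 stood at 199, 227 and 205 CPM, Psmb8 at 533, 582 and 562 CPM and Psmb10 at 446, 457 and 386 CPM. All lay above the unstimulated libraries, and Psmb10 also lay above its IFNg libraries. The rises on the log2 scale were 2.23 for Psmb9 (SE 0.24; edgeR adjusted p = 1.47e-05), 1.60 for Psmb8 (SE 0.27; adjusted p = 0.000638) and 1.78 for Psmb10 (SE 0.22; adjusted p = 3.78e-05). Psme2 stood at 304, 312 and 271 CPM and rose by 0.68 (SE 0.18; adjusted p = 0.0139). Psme1 stood at 297, 316 and 292 CPM, and its difference of 0.54 (SE 0.19; edgeR adjusted p = 0.0702) passed with the replicate block (0.56, adjusted p = 0.00267), with DESeq2 (0.56, adjusted p = 0.0201), with all 24 libraries in 1 fit (0.56, adjusted p = 0.0408) and without unstimulated replicate 3 (0.75, adjusted p = 0.0187). The call of Psme2 ended without unstimulated replicate 1 (0.56, adjusted p = 0.0748), without IFNa replicate 2 (0.64, adjusted p = 0.0593) and without the first libraries (0.54, adjusted p = 0.142).

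The constitutive catalytic subunits did not pass with IFNa: the log2 differences were 0.15 for Psmb5, 0.02 for Psmb6 and 0.23 for Psmb7, with edgeR adjusted p of 0.817, 0.982 and 0.3. In all, 11 of the 49 genes rose and 2 fell with IFNa, against 9.41% higher and 5.07% lower over all genes tested. The alpha ring again gave 4 of its 7 genes, with Psma5 up by 0.85 (edgeR adjusted p = 0.00105). Psme4, an alternative activator of the barrel, rose by 0.69 (adjusted p = 0.0103), and Psme2b by 1.19 (adjusted p = 0.0011). Psmd5 fell by 0.47 (adjusted p = 0.031), and Psmd1, a large scaffold subunit of the regulatory particle, fell by 0.41 (adjusted p = 0.00849). The number that rose was 6 without unstimulated replicate 1, 7 without IFNa replicate 2 and 7 without the first libraries, where none fell. That last setting put 802 higher and 279 lower of all 14146 genes then tested. Over all genes 1025 rose without unstimulated replicate 1 and 1014 without IFNa replicate 2. Under the replicate block 16 rose, all 5 immunoproteasome genes among them, and 3 fell. Over all 14626 genes, 2093 rose and 1619 fell under that block, against 1377 and 741 without it.

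Set directly against each other, IFNg and IFNa gave 2 of 49 members higher with IFNg and none lower, against 2.81% and 2.36% of all genes. The count that was higher is near the share of all genes. At an unadjusted p under 0.05 with edgeR 0 members were lower too, against 1081 of all 14626 genes. Psma7, of the alpha ring, was higher by 0.57 (SE 0.14; edgeR adjusted p = 0.0225) and Psmd1 by 0.42 (SE 0.10; adjusted p = 0.018). The count of 2 was not stable: leaving out any library of the comparison left 0 or 1 gene higher, and none was higher without the first libraries. Over all genes 184 to 284 were higher with a library left out and 31 without the first libraries, in place of 411. No immunoproteasome gene passed. Psmb10 had the largest difference of the 5, lower with IFNg by 0.42 on the log2 scale without passing (SE 0.21; edgeR adjusted p = 0.356), although its IFNg libraries, at 266 to 339 CPM, did not overlap its IFNa libraries, at 386 to 457 CPM. Both comparisons with unstimulated cells share their control libraries.

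TNFa raised Psmd10 and Psmd8, which serve the regulatory particle, more than any immunoproteasome gene. Of 49 members 6 rose and none fell, against 4.38% higher and 3.72% lower over all genes tested. At an unadjusted p under 0.05 with edgeR 0 members were lower too, against 1307 of all 14626 genes. Psmd10, also called gankyrin, an assembly chaperone of the ATPase ring, stood at 34.2, 33.6 and 32.7 CPM unstimulated and at 83.5, 98.4 and 113 CPM with TNFa. The groups were far apart, and Psmd10 rose by 1.54 (SE 0.14; edgeR adjusted p = 3.22e-06). With IFNg it stood at 32.7 to 39.2 CPM and with IFNa at 28.7 to 34.2 CPM, overlapping the unstimulated range. Psmd8, a lid subunit, rose by 0.92 with TNFa (SE 0.16; adjusted p = 0.000894), and Psma6, of the alpha ring, by 0.68 (SE 0.11; adjusted p = 0.000954). The other genes that rose were Psmd1 and Psmd11, both by 0.51, and Psme2.

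Of the immunoproteasome genes only Psme2 passed with TNFa. It stood at 273, 333 and 367 CPM, above all unstimulated libraries, and rose by 0.82 (SE 0.18; edgeR adjusted p = 0.0064). Psmb8 at 157, 200.4 and 252 CPM, Psmb9 at 44.3, 52.0 and 66.1 CPM, Psmb10 at 119, 158 and 189 CPM and Psme1 at 181, 215 and 254 CPM all overlapped their unstimulated libraries. Their log2 differences lay between 0.06 and 0.31, with edgeR adjusted p from 0.509 to 0.952. Psmb6, of the constitutive catalytic subunits, stood at 435, 437 and 399 CPM with TNFa, above its 271 to 312 CPM unstimulated. Its difference of 0.55 (SE 0.18; edgeR adjusted p = 0.0812) passed with the replicate block (adjusted p = 0.00135). With that block 16 members rose with TNFa in place of 6, and DESeq2 gave 13. Over all 14626 genes the number higher went from 640 to 1313 with the block and to 926 with DESeq2.

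IL-6 changed no member past the threshold: 0 of 49 rose and 0 fell with edgeR, against 0.745% higher and 0.232% lower over all genes. At an unadjusted p under 0.05 the count was 6 higher and 0 lower, against 777 and 620 of all 14626 genes. DESeq2 gave 3 higher and limma-voom 0, against 254 and 112 of all genes. With the replicate block, where 444 of all genes were higher, 3 members rose, all of them subunits of the regulatory particle: Psmd11 (0.35, adjusted p = 0.0378), Psmd12 (0.37, adjusted p = 0.0152) and Psmd7 (0.36, adjusted p = 0.0422). Psmb9 stood at 42.5, 64.0 and 73.8 CPM with IL-6 and overlapped the unstimulated libraries, with a log2 difference of 0.45 (SE 0.23; edgeR adjusted p = 0.574). Psmb8 at 142, 256 and 288 CPM, Psmb10 at 120.4, 174 and 196 CPM, Psme1 at 173, 253 and 254 CPM and Psme2 at 188, 271 and 210.3 CPM overlapped as well. The median over the 5 genes was 0.34, against 0.002 over all genes.

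Of the 5 stimulations the mixture of all 4 cytokines moved the most members, 25 of 49 higher and 2 lower, against 15.7% higher and 16.4% lower over all genes tested. All 5 immunoproteasome genes rose. Psmb9 stood at 311, 299.5 and 338 CPM, Psmb8 at 697, 812 and 866 CPM, and Psmb10 at 574, 683 and 577 CPM. Psme1 stood at 369, 435 and 393 CPM, and Psme2 at 517, 608 and 509.9 CPM. For each of the 5, all mixture libraries lay above those of every other group. The rises over unstimulated cells were 2.78 for Psmb9 (SE 0.25; edgeR adjusted p = 4.33e-07), 2.26 for Psmb10 (SE 0.22; adjusted p = 1.06e-06) and 2.06 for Psmb8 (SE 0.27; adjusted p = 2.39e-05). For the activator they were 1.53 for Psme2 (SE 0.18; adjusted p = 6.77e-06) and 0.91 for Psme1 (SE 0.19; adjusted p = 0.00146).

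Of the 3 constitutive catalytic subunits, Psmb6 and Psmb7 rose with the mixture and Psmb5 did not pass. Psmb6 stood at 410.0, 484 and 384 CPM and rose by 0.52 (SE 0.18; edgeR adjusted p = 0.0356). Psmb7 stood at 230.2, 242 and 207 CPM and rose by 0.44 (SE 0.13; adjusted p = 0.0154). Psmb5 stood at 54.5, 64.5 and 41.0 CPM, overlapped the unstimulated libraries and differed by 0.21 without passing (SE 0.25; adjusted p = 0.604). The calls of Psmb6 and Psmb7 were both lost with total counts (0.11 and 0.032; adjusted p = 0.662 and 0.877), with no filter, without the first libraries and without unstimulated replicate 1, and that of Psmb6 also without unstimulated replicate 3 or mixture replicate 2. Of the alpha ring 5 of 7 rose, of the other beta ring subunits 3 of 4, of the non-ATPase subunits 5 of 11 with 1 lower, and of the ATPases 1 of 6. None of the 4 core assembly chaperones passed.

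The largest mixture rises outside the immunoproteasome were those of Psme2b (1.85), Psmd8 (1.34; SE 0.16; edgeR adjusted p = 7.14e-06) and Psma5 (1.33; SE 0.15; adjusted p = 6.15e-06). Psmd8 stood at 202, 254 and 227 CPM unstimulated and at 534, 621 and 634 CPM with the mixture, and Psma5 at 113, 123 and 120.0 CPM and at 312, 329 and 287 CPM. Neither overlapped. Psmd5 fell by 0.69 (SE 0.14; adjusted p = 0.00122) and Psmd1 by 0.40 (SE 0.10; adjusted p = 0.00503). Under the replicate block 4 members were lower, with 3312 of all 14626 genes lower in place of 2398. Without the first libraries 18 members rose and 1 fell, against 1836 and 1568 of all 14146 genes then tested.

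The direction of the constitutive group depended on the library scaling. With total counts in place of TMM, the median over all tested genes moved to -0.47 with the mixture, -0.21 with IFNg, -0.22 with IFNa, -0.10 with TNFa and -0.24 for the mixture against IFNg, and to 0.27 in the adult comparison. Of the 31 constitutive genes, 16 rose and 1 fell with the mixture under TMM, but 5 rose and 6 fell with total counts. Relative to the median of all genes their median was 0.35 higher under TMM and 0.36 higher with total counts. The 5 immunoproteasome genes rose with the mixture under both, and their median stood 2.11 and 2.13 above that of all genes. Over all 49 members the mixture gave 13 higher and 10 lower with total counts, and among all genes called the share that was higher went from 48.8% to 23.65%. The same shares went from 66.5% to 45.1% with IFNg and from 65.0% to 43.3% with IFNa, where 4 immunoproteasome genes rose under either scaling.

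**Figure D2:**
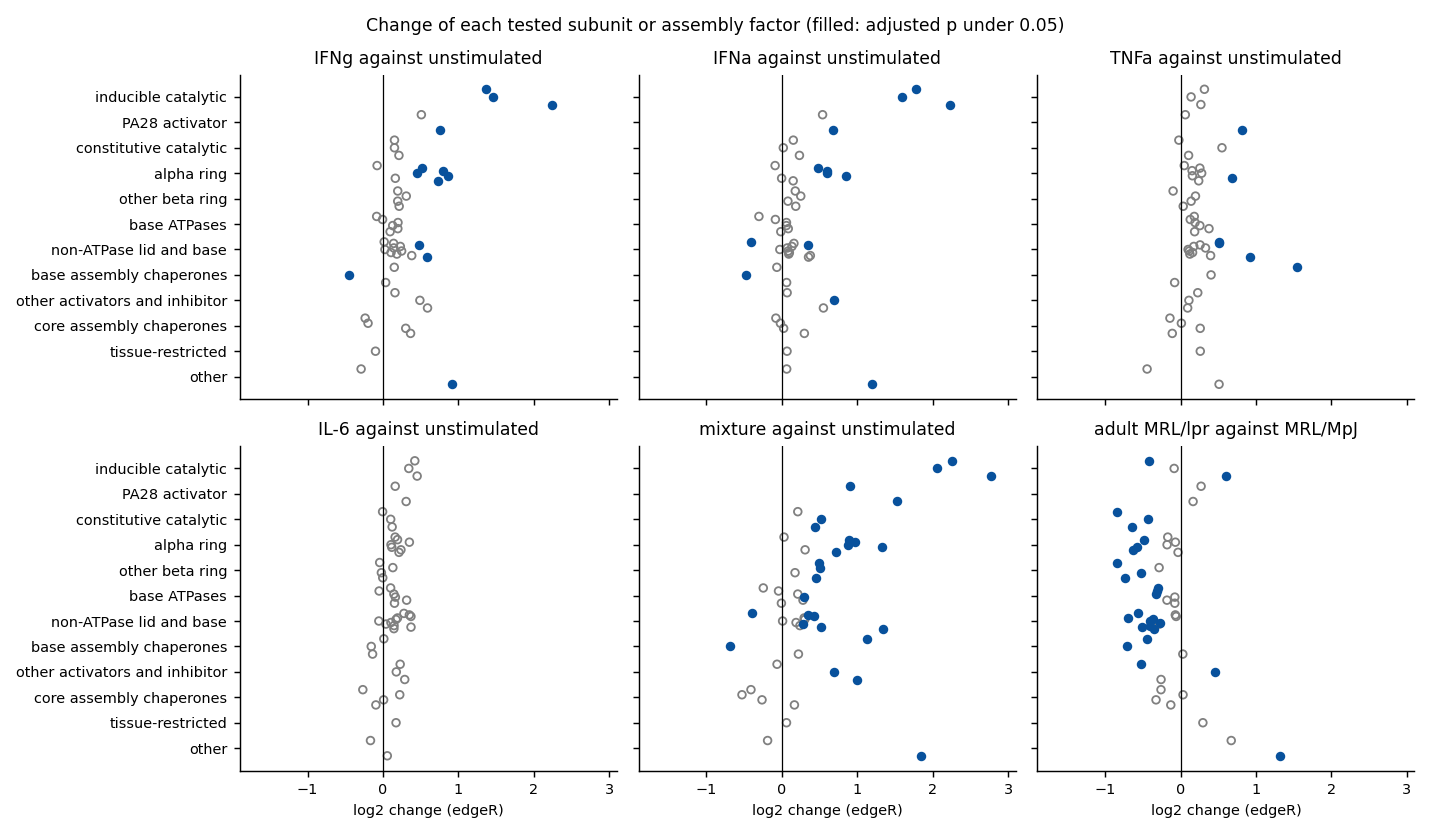
Log2 change by edgeR of each tested member in 6 comparisons, with the genes grouped by role on the vertical axis and filled points for an adjusted p under 0.05. The inducible catalytic genes lie at 1.36 to 2.78 with IFNg, IFNa or the mixture, and the constitutive groups lie nearer 0 in those panels and mostly below 0 in the adult one, where their direction follows the TMM scaling.

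The mixture exceeded IFNg alone in 6 members and fell below it in 1, against 6.45% and 7.83% of all genes. Psmd10 was higher by 0.99 (SE 0.14; edgeR adjusted p = 0.000263), Psme2b by 0.93, Psmb10 by 0.89 (SE 0.21; adjusted p = 0.00872), Psme2 by 0.77 (SE 0.18; adjusted p = 0.00722), Psmd8 by 0.75 and Psma4 by 0.42. Psmd1 was lower by 0.41 (SE 0.10; adjusted p = 0.0095), a call lost without mixture replicate 3, and that of Psmb10 was lost without IFNg replicate 1 (0.79, adjusted p = 0.0528). Psmb8, Psmb9 and Psme1 were 0.61, 0.53 and 0.40 higher without passing (edgeR adjusted p of 0.155, 0.152 and 0.196), although no libraries overlapped. With the replicate block 14 members were higher, those 3 among them (adjusted p of 0.0042, 0.0123 and 0.027), and so was Psmb6 (0.37, adjusted p = 0.0177). Over all 14626 genes the number higher went from 944 to 1739 with that block.

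The mixture was then set against the sum of the log2 changes that each cytokine gave alone. With edgeR 0 of 49 members were above that sum and 0 below it, against 0.533% and 1.14% of all genes. At an unadjusted p under 0.05 the count was 0 above and 10 below, against 587 and 989 of all 14626 genes. DESeq2 gave 3 below and limma-voom 0, against 338 and 133 of all genes. All 5 immunoproteasome values lay below the sum, at -2.42 for Psmb9 (SE 0.64; edgeR adjusted p = 0.0754), -1.62 for Psmb10 (SE 0.57; adjusted p = 0.239), -1.47 for Psmb8 (SE 0.71; adjusted p = 0.484), -1.03 for Psme2 (adjusted p = 0.434) and -0.36 for Psme1 (adjusted p = 0.923). With the replicate block 9 members were below the sum, including Psmb9 (-2.47, adjusted p = 0.00146), Psmb10 (-1.62, adjusted p = 0.0243), Psmb8 (-1.53, adjusted p = 0.0258) and Psme2 (-1.04, adjusted p = 0.0474). That block put 637 of all 14626 genes below the sum, in place of 167. The sum adds 4 differences from the same unstimulated libraries, so their spread enters it repeatedly.

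In the adult comparison 20 of the 31 constitutive genes were lower in MRL/lpr than in MRL/MpJ under TMM and none was higher, while Psmb9 was higher. Over the 49 members 3 were higher and 24 lower, against 24.1% higher and 21.6% lower over all 13799 genes tested. Psmb9 stood at 48.4, 73.8 and 45.8 CPM in MRL/lpr and at 38.0, 41.4 and 36.6 CPM in MRL/MpJ, with no overlap, and was 0.60 higher (SE 0.17; edgeR adjusted p = 0.0131). Its call was lost without MRL/MpJ replicate 1 (0.59, adjusted p = 0.0516), and its difference was 0.37 without MRL/lpr replicate 2. Psmb8 at 103, 144 and 90.6 CPM against 125, 134 and 117 CPM overlapped and differed by -0.09 (SE 0.15; adjusted p = 0.675), but it was called lower without MRL/lpr replicate 2 (-0.29, adjusted p = 0.0497).

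Psmb10 went the other way, at 64.3, 90.3 and 60.7 CPM in MRL/lpr against 99.2, 112 and 90.9 CPM in MRL/MpJ. The groups were barely apart, and Psmb10 was lower by 0.42 (SE 0.15; edgeR adjusted p = 0.0392), a call lost with total counts (-0.16, adjusted p = 0.406) and without MRL/lpr replicate 1 or 3 or MRL/MpJ replicate 1 or 2. Psme1 stood at 109, 153 and 98.7 CPM against 103, 119 and 91.0 CPM, and Psme2 at 70.5, 108 and 72.6 CPM against 73.2, 93.6 and 67.7 CPM. Both overlapped, with differences of 0.27 (SE 0.16; adjusted p = 0.196) and 0.16 (SE 0.17; adjusted p = 0.471). Psme1 passed as higher with total counts (0.53, adjusted p = 0.0197), with no filter (0.33, adjusted p = 0.0209) and with the replicate number as a block (0.25, adjusted p = 0.0311). MRL/lpr replicate 2 was the highest library of its group for all 5 genes.

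All 3 constitutive catalytic subunits were lower in MRL/lpr. Psmb5 stood at 11.05, 14.7 and 9.90 CPM against 20.6, 28.9 and 17.9 CPM and was lower by 0.85 (SE 0.21; edgeR adjusted p = 0.0065). Psmb7 stood at 44.9, 62.3 and 47.3 CPM against 86.9, 89.7 and 75.7 CPM and was lower by 0.64 (SE 0.14; adjusted p = 0.00263). Psmb6 stood at 56.2, 65.6 and 52.0 CPM against 81.2, 94.8 and 69.4 CPM and was lower by 0.43 (SE 0.14; adjusted p = 0.0226). None of these overlapped between strains, and the call of Psmb6 was lost with total counts (-0.17, adjusted p = 0.335) and without any one of MRL/lpr replicate 1 or 3 and MRL/MpJ replicate 1 or 2.

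Among the remaining subunits the largest decreases were in the beta ring, in Psmb1 (63.2, 76.8 and 64.4 CPM in MRL/lpr against 115, 142 and 126 CPM; lower by 0.84; SE 0.12; edgeR adjusted p = 0.000162) and Psmb4 (lower by 0.74; SE 0.14; adjusted p = 0.00133), followed by Psmd5 (lower by 0.71; SE 0.12; adjusted p = 0.000457). By role, 3 of 7 alpha ring genes, 3 of 4 other beta ring genes, 3 of 6 ATPases and 8 of 11 non-ATPase subunits were lower, and none of these was higher. The members that were higher besides Psmb9 were Psme4 (0.46; SE 0.11; adjusted p = 0.00581) and Psme2b (1.32; SE 0.24; adjusted p = 0.000973).

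Of the 31 constitutive genes all 31 had a negative log2 value and 20 were called lower under TMM, with a median of -0.35, whereas with total counts 9 were positive, 22 negative and 7 called lower, with a median of -0.09. Relative to the median of all genes, at 0.01 and 0.27, both medians lay 0.36 lower. With total counts the members gave 4 higher and 8 lower, and the share of higher genes among all called rose from 52.7% to 76.9%. The number of members lower under TMM was 13 without MRL/lpr replicate 1, 13 without MRL/lpr replicate 3 and 26 without MRL/lpr replicate 2. Over all genes 2114, 2104 and 3030 were lower in these settings, in place of 2982. The share of reads that fell on members overlapped between the strains, at 0.295% to 0.351% (MRL/lpr) and 0.307% to 0.345% (MRL/MpJ), against 0.589% to 0.615% in unstimulated neonatal cells and 0.669% to 0.804% with the mixture. Beside these differences, the sum of NK cell markers was 53.5 to 66.7 CPM for MRL/lpr against 6.78 to 20.5 CPM for MRL/MpJ, with 5 of 6 higher and Klre1 at 0 in MRL/MpJ. The 6 microglia markers were all lower, at 38059 to 41689 CPM against 58373 to 59625 CPM, and so were 4 of 4 markers of border macrophages. Of the other lists, 2 of 6 T cell, 1 of 3 monocyte and 1 of 3 neuron markers were higher, and 2 of 3 oligodendrocyte and 1 of 2 B cell markers were lower. Over all genes tested, 24.1% were higher and 21.6% lower. The part of these markers in the result was not tested.

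**Figure D3:**
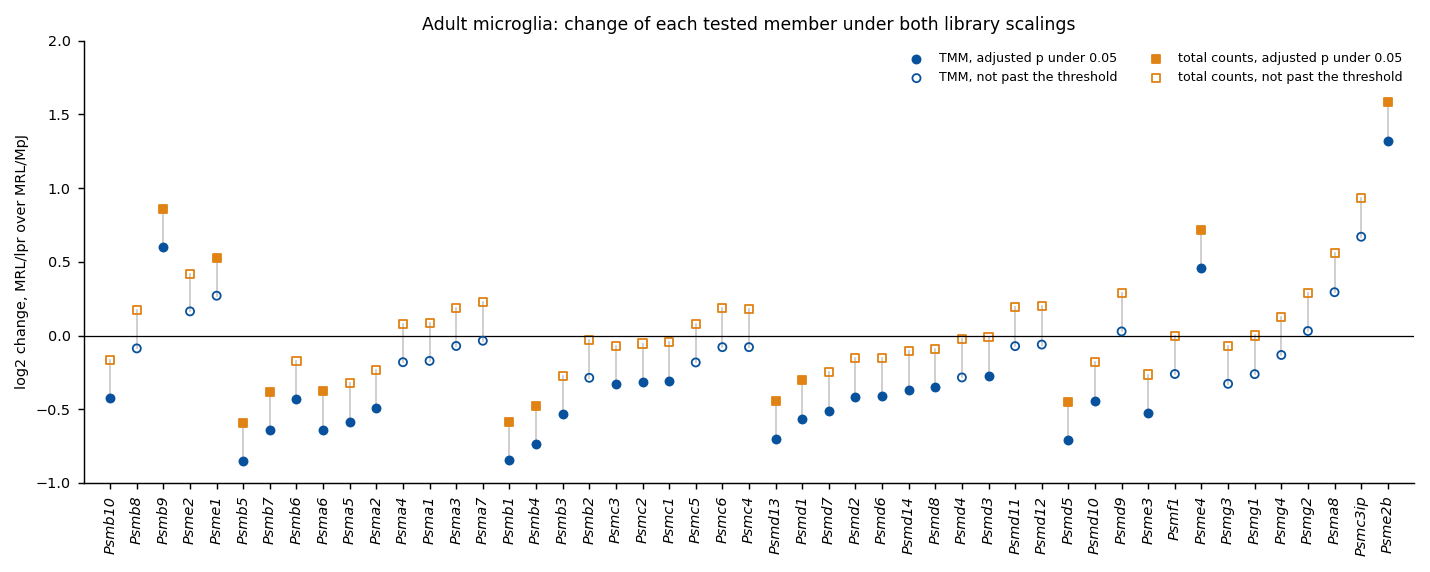
Log2 change of each tested member in adult MRL/lpr over MRL/MpJ microglia with TMM (circles) and total counts (squares), filled where the adjusted p is under 0.05. Psmb9 and Psme2b lie above 0 and Psmb5, Psmb1 and Psmb4 below 0 with both scalings, while 9 of the 31 constitutive genes lie above 0 with total counts and none with TMM.

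Ratios between an inducible gene and its constitutive counterpart within a library do not depend on the scaling. They were taken on reads per length of exon. In unstimulated neonatal cells the ratio of Psmb8 to Psmb5 was 0.750, 1.01 and 1.53 over the libraries in rising order, that of Psmb9 to Psmb6 0.0590, 0.0663 and 0.115, and that of Psmb10 to Psmb7 1.30, 1.44 and 1.86. The pairs thus started from unlike levels, with Psmb9 far below Psmb6.

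With IFNg the Psmb9 to Psmb6 ratio was 0.299, 0.327 and 0.403, with IFNa 0.337, 0.373 and 0.395, and with the mixture 0.317, 0.387 and 0.451. All lay above the unstimulated libraries, whereas with TNFa, at 0.0521, 0.0608 and 0.0847, and with IL-6, at 0.0797, 0.0908 and 0.145, they overlapped them. The geometric mean of Psmb8 to Psmb5 went from 1.05 unstimulated to 2.71 with IFNg, 2.98 with IFNa and 3.999 with the mixture. That of Psmb10 to Psmb7 went from 1.51 to 3.41, 4.49 and 5.41. The ratio of Psme1 and Psme2 together to Psme3, which encodes the nuclear PA28 subunit that interferon is not known to induce, went from 5.17 to 7.27, 7.61 and 13.1. In the 2-sided exact permutation test each difference of IFNg, IFNa or the mixture from unstimulated cells reached p = 0.1. This is the smallest p that 3 against 3 libraries allow, and was 0.168 after Benjamini-Hochberg adjustment over 32 such tests. For Psmb9 to Psmb6 the exact permutation p was 0.6 with TNFa and 0.4 with IL-6.

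In the adult microglia the same ratios were higher in MRL/lpr. Psmb9 to Psmb6 was 0.441, 0.451 and 0.576 in MRL/lpr and 0.223, 0.239 and 0.270 in MRL/MpJ, a 1.99-fold difference of the geometric means. Psmb8 to Psmb5 was 2.43, 2.48 and 2.60 against 1.23, 1.62 and 1.74, which is 1.66-fold. Psmb10 to Psmb7 was 2.58, 2.87 and 2.91 against 2.29, 2.41 and 2.50, which is 1.16-fold, and the activator ratio was 4.35, 4.78 and 6.81 against 2.75, 2.80 and 4.07, which is 1.65-fold. None of the 4 ratios overlapped between strains, each with exact permutation p = 0.1, adjusted 0.168. Psmb8, Psmb10, Psme1 and Psme2 themselves were not called higher in MRL/lpr under TMM, whereas the denominators Psmb5, Psmb7 and Psme3 (-0.53; SE 0.11; edgeR adjusted p = 0.00185) were lower.

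**Figure D4:**
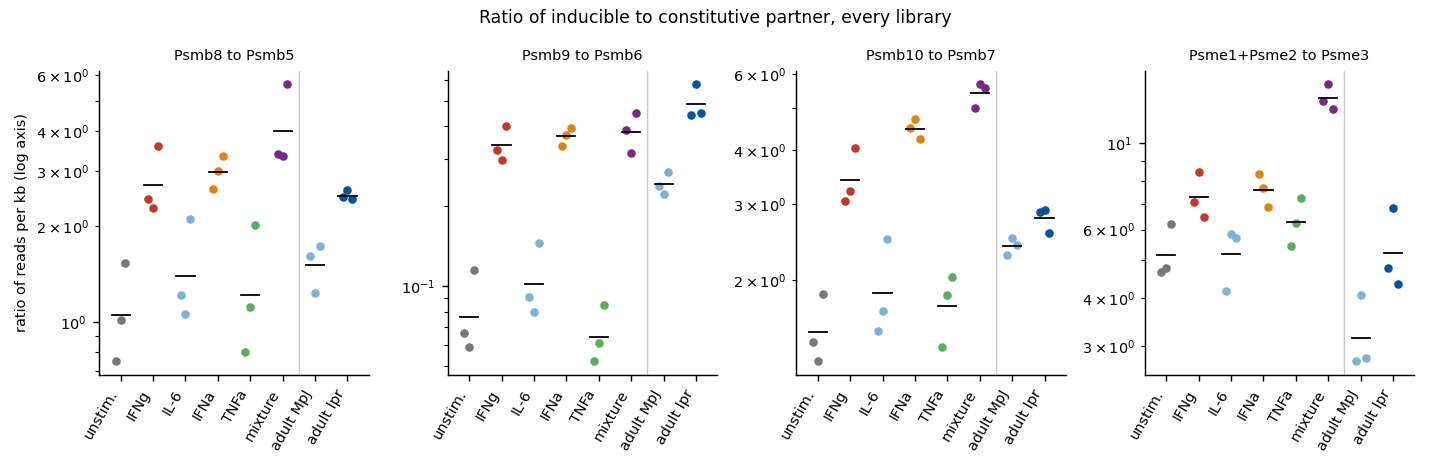
Ratio of each inducible gene to its constitutive counterpart per exon length, by group on a log axis, with a point per library and the geometric mean. The ratio of Psmb9 to Psmb6 has geometric means of 0.0765 unstimulated, 0.340 with IFNg, 0.367 with IFNa and 0.0645 with TNFa, and of 0.485 and 0.243 in adult MRL/lpr and MRL/MpJ.

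Over the 8 groups, the mean levels of Psmb8 ran from 792 CPM with the mixture to 113 CPM in adult MRL/lpr, a 7.03-fold span, those of Psmb9 spanned 8.18-fold and those of Psmb10 8.52-fold. For all 3 the order began with the mixture, IFNa and IFNg, with IFNa and IFNg overlapping for Psmb8 and Psmb9 but not for Psmb10. IL-6, TNFa and unstimulated libraries followed, with adult MRL/lpr after IL-6 for Psmb9, and each overlapped its neighbours in that order. For Psme2 the second place went to TNFa, which overlapped IFNg, and IFNg overlapped IFNa. Psmb5, Psmb6 and Psmb7 were lowest in the adult groups, with every neonatal library above every adult one, and so were Psme1 and Psme2. Psmb8 and Psmb10 were lowest in the adult groups as well, but their adult MRL/MpJ libraries overlapped the unstimulated ones. Psmb5 spanned 4.48-fold, its 6 neonatal groups overlapping one another in order, and Psmb6 spanned 7.35-fold with the mixture and TNFa at the top.

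Genes that work with the immunoproteasome in antigen presentation were read beside it. Of 14 genes of the MHC class I pathway and its regulators, 8 rose with IFNg, 7 with IFNa, 2 with TNFa, 1 with IL-6 and 9 with the mixture, and none fell with edgeR. Over all genes tested, 8.57%, 9.41%, 4.38%, 0.745% and 15.7% rose. The largest rises with IFNg were those of Irf1, an interferon response factor (4.86), Nlrc5, the class I transactivator (4.20), and the peptide transporter subunit Tap1 (2.96), which flanks Psmb8 and Psmb9. With IFNa they were Nlrc5 (4.17), Tap1 (2.92) and Tapbpl (2.28). TNFa raised Irf1 (2.01) and Tapbpl (1.01), a peptide editor, and IL-6 raised Tapbpl (1.35). In the adult comparison, where 24.1% of all genes were higher and 21.6% lower, 4 of the 14 were higher in MRL/lpr, among them Nlrc5 (5.13) and Irf1 (0.75), and 5 were lower, led by the loading factors Tapbp (-0.88), Canx (-0.81) and Calr (-0.73). Nlrc5 had a mean of 24.4 CPM (SD 8.06) in MRL/lpr but of 0.756 CPM (SD 0.739) in MRL/MpJ. The latter is near the floor, so the size of its change is uncertain.

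Of 19 regulators and cofactors of the proteasome, 1 rose with IFNg and 1 with IFNa, in both cases Fbxo7, a proteasome-binding ubiquitin ligase subunit (0.78 and 1.54), which as counts are below the 8.57% and 9.41% of all genes. TNFa raised 2, Zfand5, a proteasome activator (0.84), and Nfe2l2, the stress factor Nrf2 (0.72), and IL-6 none with edgeR, as with the subunits. Over all genes 4.38% rose with TNFa and 0.745% with IL-6. The mixture raised 3, Fbxo7 (1.61), Nfe2l2 (0.86) and the core maturation factor Pomp (0.50), and lowered 3, Ddi2 (-0.98), Usp14 (-0.65) and Ube3c (-0.58), counts close to the 15.7% and 16.4% of all genes. In MRL/lpr 2 were higher, Ddi2 (0.72) and Ecpas (0.50), and 9 lower, led by Txnl1 (-0.57), Nfe2l2 (-0.56) and Vcp (-0.54). Over all genes 24.1% were higher and 21.6% lower in the adult comparison. The related lists were read under TMM only. Of 7 peptidases, enzymes that trim or degrade peptides, 1 rose with IFNg (Lap3, 2.54), 2 with IFNa (Lap3, 1.91, and Npepps, 0.81) and 3 with the mixture (Lap3, 2.44, Lnpep, 1.65, and Npepps, 0.90), while 1 fell with TNFa (Lap3, -0.67). Over all genes 8.57%, 9.41% and 15.7% rose with IFNg, IFNa and the mixture, and 3.72% fell with TNFa. In MRL/lpr 2 of them were higher (Nrd1, 0.63, and Tpp2, 0.31) and 3 lower (Blmh, -0.56, Lap3, -0.54, and Lnpep, -0.32), against 24.1% and 21.6% of all genes. Of 6 ubiquitin and ubiquitin-like genes, Isg15, a ubiquitin-like interferon product, rose with IFNa (3.31) and the mixture (4.07) and also passed with IFNg, while Ubd was also called with IFNg and the mixture from 0 reads in the unstimulated libraries. In MRL/lpr 2 of the 5 tested were lower, the ubiquitin precursor genes Rps27a (-0.996) and Ubb (-0.47), against 21.6% of all genes.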

How the data were processed

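Bulk RNA-seq of 24 libraries was used, as raw counts per gene that the authors deposited in a single table; reads were trimmed with cutadapt 2.1 and aligned with STAR 2.7.1a to mm10, per the submitters' processing notes. The counting program and its strand setting were not given in the sources used here. Groups came from the labels. Counts were tested with edgeR 4.0.16 (quasi-likelihood, filterByExpr, TMM, robust; R 4.3.3), with adult (6) and neonatal (18) libraries fitted apart and Benjamini-Hochberg adjustment over all 13799 and 14626 genes kept; calls have an adjusted p under 0.05. Standard errors are the log2 change over the root of F. Alternatives were DESeq2 1.42.0, limma-voom (limma 3.58.1), other scalings, filters and sample sets, a replicate block and each library left out.

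Same-numbered neonatal libraries deviated together, as all 45 of 45 pairs of deviations correlated above 0.1 (0.184 to 0.687). The main fits and the permutation tests did not use this pairing, which entered only through the replicate block. Among 24 pairs of same-group libraries none was identical, and chi-square divided by its degrees of freedom was 5.07 or more. The value of 5.07 was that of MRL/lpr replicates 1 and 3, and the next lowest was 15.7. Replicate 2 of MRL/lpr gave 23.3 against replicate 1 and 26.9 against replicate 3. Named besides the 5 immunoproteasome genes and Psmb5, Psmb6 and Psmb7 were up to 3 called members, and up to 3 called genes of each related list, with the largest change in each direction. A few others were named after their values were seen: all members called where 6 or fewer passed. For 2 genes of the related lists the values are not reported here. The members and lists were chosen with earlier results of these data known. The fits were tested on simulated data.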

Additional observations from a re-analysis of the deposited data

How the results depend on the processing

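With Psmb8, Psmb9 and Psmb10, the rises with IFNg, IFNa and the mixture kept their direction and their call under every alternative run. The adult ratios kept their direction under every alternative run, with 3 libraries a group, whose smallest exact permutation p is 0.1. Psmb5 had 208 to 1037 reads per library, which limits the precision of its values. Adult replicate numbers were not taken as pairs, since only 2 of 3 correlations passed 0.1 (0.06 to 0.154). The adult replicate block gave 4 members higher and 26 lower, against 3559 and 3362 of all 13799 genes. Psmb9 in the adult comparison lost its call with all 24 libraries in 1 fit (0.54, edgeR adjusted p = 0.0712). The cause of the changes given here was not tested.

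Counts of members moved by over 1.5 times under these settings. The number of all genes called moved with the settings too, and is given in brackets for the same comparison and direction. In the main fits it was 3328 higher and 2982 lower for the adult comparison, 2289 and 2398 for mixture, 1254 and 632 for IFNg, and 1377 and 741 for IFNa. It was 640 higher for TNFa, 109 for IL-6, 411 for IFNg against IFNa and 944 for mixture against IFNg. It was 1145 lower for mixture against IFNg and 167 lower for mixture against the sum. With total counts, there were 8 lower (1439) for the adult comparison, 13 higher (1547) and 10 lower (4993) for mixture. That scaling gave 1 higher (479) for IFNg against IFNa and 5 lower (2769) for mixture against IFNg. For mixture against the sum it gave 1 lower (212). With all 24 libraries in 1 fit, there were 1 higher (2269) for the adult comparison and 1 higher (151) for IL-6. That fit gave 10 higher (821) for TNFa and 2 lower (209) for mixture against the sum. With the replicate block, there were 3 higher (444) for IL-6, 16 higher (1313) for TNFa and 4 lower (3312) for mixture. The block gave 14 higher (1739) for mixture against IFNg and 9 lower (637) for mixture against the sum. With DESeq2, there were 3 higher (254) for IL-6 and 13 higher (926) for TNFa. DESeq2 gave 13 higher (1399) for mixture against IFNg and 3 lower (338) for mixture against the sum. With DESeq2 size factors in edgeR, there were 1 lower (173) for mixture against the sum. With no filter, there were 0 lower (556) for IFNg and 1 lower (606) for IFNa. That setting gave 0 higher (302) for IFNg against IFNa and 0 lower (812) for mixture against IFNg. With only the groups compared, there were 1 lower (669) for IFNa, 1 higher (382) for IFNg against IFNa, 0 lower (566) for mixture against IFNg. With the first libraries left out, there were 5 higher (577) and 0 lower (310) for IFNg, 7 higher (802) and 0 lower (279) for IFNa. That set gave 1 lower (1568) for mixture, 0 higher (31) for IFNg against IFNa and 0 lower (301) for mixture against IFNg. Leaving out 1 library at a time, the ranges were 13 to 26 lower (2104 to 3030) for the adult comparison and 0 to 0 lower (368 to 494) for IFNg. For IFNa they were 6 to 11 higher (1014 to 1259) and 1 to 2 lower (401 to 740). For mixture against the sum they were 0 to 1 lower (53 to 193). For IFNg against IFNa they were 0 to 1 higher (184 to 284), and for mixture against IFNg 0 to 1 lower (661 to 768).

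Signs changed in 64 log2 differences of the 8 genes and in 10 log2 ratios. None of those 64 differences passed the threshold under either setting. The ratios could not pass it in any setting, since the smallest exact permutation p is 0.1 for 3 against 3 libraries. With total counts, log2 differences were Psmb8 0.17 for the adult comparison, Psmb5 -0.038 and Psmb6 -0.033 for IFNg, Psmb5 -0.022 and Psmb6 -0.15 for IFNa, Psme1 -0.0071 for TNFa, Psmb5 -0.20 for mixture, Psmb5 -0.016 for IFNg against IFNa, Psmb5 -0.16 for mixture against IFNg, Psmb5 0.0025 for mixture against the sum. With the replicate block, log2 differences were Psmb5 -0.017 for IFNg against IFNa, Psmb5 0.0027 for mixture against the sum. With DESeq2, log2 differences were Psmb5 0.0022 for IL-6, Psmb9 -0.015 and Psmb5 -0.034 for IFNg against IFNa. With limma-voom, log2 differences were Psmb5 -0.015 for IFNg against IFNa, Psmb5 0.059 for mixture against the sum. With DESeq2 size factors in edgeR, log2 differences were Psmb5 0.0015 for IL-6, Psmb9 -0.015 and Psmb5 -0.034 for IFNg against IFNa. With no filter, log2 differences were Psmb6 -0.0067 for IFNa, Psmb9 -0.00070 and Psmb5 -0.018 for IFNg against IFNa, Psmb5 0.017 for mixture against the sum. With a filter of 1 CPM in 3 libraries, log2 differences were Psmb6 -0.0030 for IFNa, Psmb5 -0.0027 for IFNg against IFNa. With all 24 libraries in 1 fit, log2 differences were Psmb9 -0.028 and Psmb5 -0.049 for IFNg against IFNa. With only the groups compared, log2 differences were Psmb9 -0.0022 and Psmb5 -0.021 for IFNg against IFNa. With the first libraries left out, log2 differences were Psmb5 0.22 for IL-6, Psmb6 -0.055 for IFNa, Psmb7 0.0057 for IFNg against IFNa. With raw count ratio without gene length, log2 differences were Psme1 and Psme2 to Psme3 -0.0024 for IL-6. The ranges with 1 library left out were as follows. For the adult comparison they were -0.29 to 0.055 (Psmb8), -0.043 to 0.31 (Psme2). For IFNg they were -0.0057 to 0.25 (Psmb5). For IL-6 they were -0.39 to 0.20 (Psmb5), -0.18 to 0.26 (Psmb6), -0.021 to 0.19 (Psmb7), -0.080 to 0.16 (Psme1 and Psme2 to Psme3 ratio). For IFNa they were -0.041 to 0.095 (Psmb6). For TNFa they were -0.067 to 0.42 (Psmb8), -0.085 to 0.27 (Psme1), -0.13 to 0.14 (Psmb5), -0.16 to 0.51 (Psmb8 to Psmb5 ratio), -0.44 to 0.044 (Psmb9 to Psmb6 ratio). For mixture against the sum they were -0.98 to 0.078 (Psme1), -0.27 to 0.31 (Psmb5). For IFNg against IFNa they were -0.095 to 0.084 (Psmb9), -0.11 to 0.0074 (Psme1), -0.055 to 0.14 (Psme2), -0.16 to 0.046 (Psmb5), -0.12 to 0.0056 (Psmb7), -0.17 to 0.021 (Psme1 and Psme2 to Psme3 ratio). For mixture against IFNg they were -0.019 to 0.30 (Psmb5).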

Other observations

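The genes whose group means were most like those of the immunoproteasome were ranked by Pearson's r of log2 levels over the 8 group means, as a description with no test, since the groups share culture and age. For Psmb9 they were Klrk1 (0.994), Tap1 (0.987) and Gbp9 (0.987), an interferon-induced GTPase. For Psmb8 they were Ccdc25 (0.996), Sgcb (0.994) and Max (0.993), and for Psmb10 Ccdc25 (0.993), Psmb8 (0.993) and Gatad2a (0.992). For Psme1 they were Smarca4 (0.995), Chmp4b (0.994) and Spop (0.994), and for Psme2 Nab1 (0.996), Zcchc9 (0.996) and Ciao2b (0.993).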
